A study of Homo sapiens with 64 samples.

Results

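The E2F and RB family was followed across all sequencing tables of a study of fibrillarin (FBL) in 2 human cell lines. The 10 members are the transcription factors E2F1, E2F2, E2F3, E2F4, E2F5, E2F7 and E2F8 and the pocket proteins RB1, RBL1 and RBL2. They were taken by gene name and not by a cutoff on their values, though earlier results of these data were known. All 10 were found among 26364 genes in the C4-2 and RIP tables, 25207 in the HEK293T tables and 31796 in the SLAM-seq files. C4-2 is an androgen-independent line of prostate cancer, and HEK293T is a kidney-derived line that carries adenoviral E1A and the SV40 large T antigen. C4-2 cells received siFBL or siCTRL, and RNA was sequenced at 0, 3, 6 and 12 h. HEK293T cells received siFBL, siNOP56 or siCTRL, and RNA was sequenced at 0, 6, 12 and 24 h. The stated aim was mRNA half-life; no source used here gives how transcription was stopped, if it was. Further C4-2 libraries came from RNA pulled down with an anti-FBL antibody after siCTRL (RNA immunoprecipitation, RIP) and its input, and from SLAM-seq after siFBL or siCTRL. The SLAM-seq cells had 24 h in 100 µM 4-thiouridine and then a chase in 10 mM uridine, with labelled hours of 0, 6, 12 and 24 h. Each group had 2 libraries, and whether they came from separate cultures is not stated, so the p-values measure only the spread between these libraries.

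E2F1, E2F2 and E2F3 activate genes for DNA replication and mitotic entry, and RB1 binds and silences them until cyclin-dependent kinases phosphorylate it. E2F4 and E2F5 work mainly with RBL1 and RBL2 as repressors in resting cells, where RBL2 also joins the MuvB core to form the DREAM complex; E2F7 and E2F8 bind DNA without a dimer partner and repress the same genes late in S phase. E1A and large T antigen bind all the pocket proteins and free E2F from them. FBL is the methyltransferase of box C/D ribonucleoproteins, which modify ribosomal RNA, and NOP56 is a scaffold subunit of the same particles.

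Several genes of the family are themselves E2F targets, and their promoter letters are shown first. A window of 250 bases before to 50 bases after the start was available for 8 of the 10 members in RefSeq sequence (GRCh38.p14); E2F5 and E2F8 had none. An E2F-type match meant TTTGGCGC, TTTCCCGC, TTTGCCGC or TTTCGCGC on either strand, and 3.31% of 35116 windows of all genes held one. The 80 bases before the start are given 5′ to 3′ on the gene's strand, with E2F-type letters in capitals, for 3 members that were lower after siFBL in C4-2 cells and hold a match, 1 member with a match that was not called (E2F3) and 1 called member without one (E2F7). They lie at chr20:33686386-33686465 (minus strand, E2F1), chr1:23531234-23531313 (minus, E2F2), chr20:37095998-37096077 (minus, RBL1), chr6:20401799-20401878 (plus, E2F3) and chr12:77065570-77065649 (minus, E2F7).
E2F1: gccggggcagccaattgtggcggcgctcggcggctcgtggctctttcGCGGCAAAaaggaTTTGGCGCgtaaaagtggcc
E2F2: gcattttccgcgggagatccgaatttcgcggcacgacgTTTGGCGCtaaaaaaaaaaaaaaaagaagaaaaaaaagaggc
RBL1: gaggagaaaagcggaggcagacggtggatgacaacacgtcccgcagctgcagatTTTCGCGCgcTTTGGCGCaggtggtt
E2F3: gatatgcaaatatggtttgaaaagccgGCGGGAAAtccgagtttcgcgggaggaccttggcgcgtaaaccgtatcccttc
E2F7: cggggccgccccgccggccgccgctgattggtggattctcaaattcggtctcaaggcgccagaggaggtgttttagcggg
E2F1 and RBL1 each held 2 matches, and E2F2 and E2F3 each held 1. E2F4, E2F7 and RBL2 held none, and the RB1 window lies inside the gene rather than at its annotated start. A match describes letters, not a bound site, and the absence of one says only that these letters are not in the window.

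Depth was 79 to 106.1 M counts per C4-2 library, 16 to 19.9 M per HEK293T library, 22.9 to 33.3 M per RIP or input library and 14.3 to 60.3 M mapped reads per SLAM-seq library. Levels are given in CPM, counts scaled to a common depth of 1 M with edgeR's TMM factors. The 8 prostate luminal markers each averaged at least 1 CPM in the C4-2 tables (summed level 6380 to 8250 CPM with siFBL and 5510 to 6500 CPM with siCTRL). In HEK293T cells 4 of the 8 averaged at least 1 CPM with each siRNA, and KLK3 was at 0 in all libraries. Their summed level there was 9.2 to 52.6 CPM with siFBL, 7.81 to 53.6 CPM with siNOP56 and 16.2 to 63.4 CPM with siCTRL. FBL mRNA had 3.63 and 2.76 CPM in the siFBL libraries of C4-2 at 0 h, against 305 and 265 CPM with siCTRL. In HEK293T at 0 h, FBL had 17.7 and 15.5 CPM with siFBL, against 322 and 313 CPM with siCTRL. NOP56 had 91.9 and 76.3 CPM with siNOP56, against 206 and 204 CPM with siCTRL. C4-2 columns could be tied to a group but not to 1 sample, so the C4-2 libraries of a group are called A and B. In 12 of 16 SLAM-seq files the hour in the file header differed from the labelled hour.

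Per kilobase of annotated exon, the order of the members differed between the lines at 0 h. With siFBL in C4-2 cells, E2F4 was highest at a mean of 21.7 CPM per kb, with libraries at 15.8 and 27.5, so that it did not stand clear of E2F1 (14.4) or RBL2 (13.9). E2F8 (1.26) and E2F2 (1.24) were lowest with siFBL. With siCTRL in C4-2 cells, E2F1 was highest at 56.3 CPM per kb, above E2F4 at 36.2, RB1 at 16.3 and RBL2 at 12.8. E2F7 at 6.93 and RBL1 at 6.56 overlapped with siCTRL, as did E2F2 at 5.48 and E2F5 at 5.27. In HEK293T cells with siCTRL, E2F4 was highest at 61.1 CPM per kb, ahead of E2F1 at 22.6. RB1 at 12.4 and E2F5 at 12.0 overlapped there, as did RBL1 at 5.10 and E2F8 at 4.70.

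**Figure D1:**
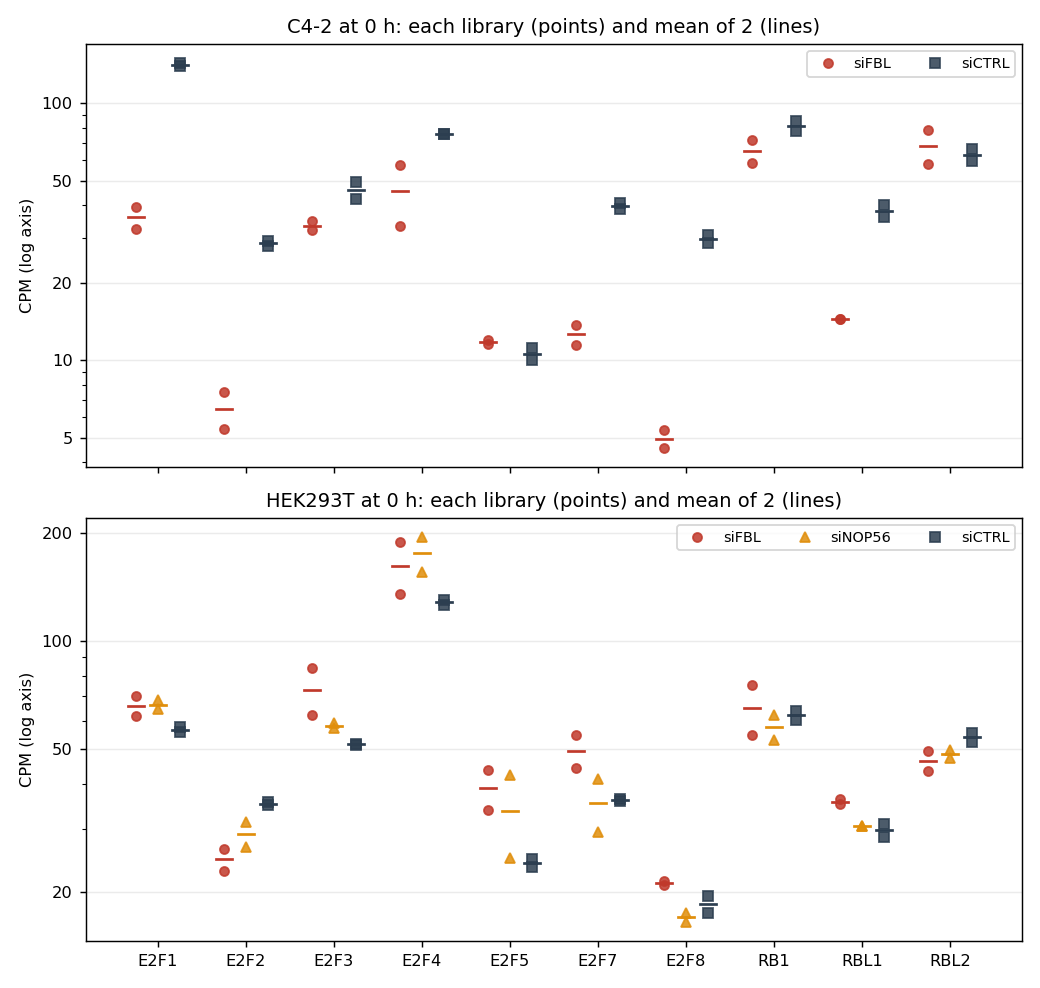
Levels of the 10 members at 0 h in CPM on a log axis, with siFBL libraries left of siCTRL libraries in C4-2 cells and siFBL, siNOP56 and siCTRL libraries in HEK293T cells. Each point is 1 library and each short line a group mean. E2F1 sits at 32.3 and 39.6 CPM after siFBL in C4-2 cells, clear of 139 and 143 CPM after siCTRL, while the HEK293T groups lie close together.

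In C4-2 cells at 0 h, siFBL was compared with siCTRL to see what loss of FBL did to steady levels. E2F1, E2F2, E2F7, E2F8 and RBL1 fell, and E2F3, E2F4, E2F5, RB1 and RBL2 did not pass the test. In bulk RNA, fewer cycling cells and less of an mRNA per cell cannot be told apart. E2F1, the activator that drives S-phase genes, had 39.6 and 32.3 CPM in siFBL libraries A and B, against 143 and 139 CPM in siCTRL libraries A and B. The siFBL libraries lay wholly below the siCTRL libraries, 3.93-fold lower (log2 change -1.98, SE 0.194, adjusted p = 8.84e-06, edgeR quasi-likelihood test, Benjamini-Hochberg adjustment over all genes). E2F2, a second activator, had 7.53 and 5.38 CPM with siFBL, against 29.1 and 27.8 CPM with siCTRL. Its groups did not overlap either, and it fell by 2.14 on the log2 scale (SE 0.385, edgeR Benjamini-Hochberg adjusted p = 0.00216). E2F3, the remaining activator, had 32 and 34.7 CPM with siFBL, against 49.4 and 42.2 CPM with siCTRL. Its libraries did not overlap, but the log2 change of -0.46 was not called (edgeR Benjamini-Hochberg adjusted p = 0.375).

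Among the repressors, E2F8 showed the greatest log2 change of the 10 members at 0 h. It had 5.35 and 4.55 CPM with siFBL, against 30.7 and 28.6 CPM with siCTRL. That is a 5.99-fold lower level (log2 change -2.58, SE 0.399, edgeR Benjamini-Hochberg adjusted p = 0.000571). E2F7 had 11.5 and 13.7 CPM with siFBL, against 41.0 and 38.6 CPM with siCTRL (log2 change -1.65, SE 0.304, edgeR Benjamini-Hochberg adjusted p = 0.0026), again without overlap. E2F4 had 33.2 and 57.6 CPM with siFBL, against 75.9 CPM in both siCTRL libraries. The siFBL libraries differed from each other by more than any siCTRL pair did for this gene, and the log2 change of -0.74 was not called (edgeR Benjamini-Hochberg adjusted p = 0.211). E2F5, the other partner of RBL1 and RBL2, had 12.0 and 11.6 CPM with siFBL, against 11.2 and 9.99 CPM with siCTRL (log2 change 0.15, not called).

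Of the pocket proteins, RBL1 was the one that fell at 0 h. It had 14.4 CPM in both siFBL libraries, against 40.1 and 36.2 CPM with siCTRL, 2.65-fold lower (log2 change -1.40, SE 0.178, edgeR Benjamini-Hochberg adjusted p = 9.32e-05). RB1, the retinoblastoma protein gene, had 58.6 and 72.0 CPM with siFBL, against 85.4 and 78.2 CPM with siCTRL (log2 change -0.33, edgeR Benjamini-Hochberg adjusted p = 0.209). RBL2 had 57.9 and 78.7 CPM with siFBL, against 66.3 and 59.4 CPM with siCTRL (log2 change 0.12), and its groups overlapped. Part of RBL2 (12.4% of its exon bases) lies opposite AKTIP, and 22.1% of E2F5 lies opposite C8orf59; the labels do not say if reads were counted by strand, and reads of such neighbours cannot be told apart.

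In all, 5 of 10 members were called, each of them lower, at 0 h in C4-2 cells, where 8.48% of 23437 genes were called and 6.87% were called lower. All 5 calls held under each of the 11 alternatives tried. The same 5 members were lower at each later hour, where the share of genes called was 11.9% (3 h), 9.05% (6 h) and 13.4% (12 h). At 12 h E2F1 had 38.4 and 28.1 CPM with siFBL, against 121 and 123 CPM with siCTRL. RBL1 had 7.81 and 6.83 CPM with siFBL at 12 h, against 20.5 and 19.8 CPM with siCTRL. Neither gene overlapped between the groups at that hour. E2F1 had log2 changes of -1.90, -1.85 and -1.87 at 3, 6 and 12 h, and RBL1 of -1.32, -1.46 and -1.46. E2F2 had -2.26, -2.53 and -3.05, and E2F8 had -1.81, -2.13 and -1.99. With the libraries of 1 hour fitted alone, E2F8 was not called at 3 h (edgeR Benjamini-Hochberg adjusted p = 0.0528) or 12 h (adjusted p = 0.087), nor was E2F7 at 12 h (adjusted p = 0.0631). E2F8 was also not called at 3 h without siFBL library B or at 12 h without siCTRL library A. Libraries with the same number deviated together across hours (r 0.65 to 0.803 for siFBL in C4-2), so the 4 hours are not independent repeats.

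E2F4 joined the called members at the later hours. At 6 h it had 10.2 and 17.9 CPM with siFBL, against 32.3 and 32.9 CPM with siCTRL (log2 change -1.22, edgeR Benjamini-Hochberg adjusted p = 0.0441). At 12 h it had 5.57 and 9.61 CPM with siFBL, against 27.1 and 26.9 CPM with siCTRL (log2 change -1.83, edgeR Benjamini-Hochberg adjusted p = 0.00323). The siFBL libraries lay below the siCTRL libraries at both hours. The 6 h call was lost under 7 of 11 alternatives, among them the fits without siCTRL library A, without siCTRL library B and without siFBL library A; the 12 h call held under all 11.

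Genes around the family were read from 6 pathway lists, which were chosen with earlier results of these data known. At 0 h in C4-2 cells, all 26 replication targets of E2F tested were lower after siFBL, with a median log2 change of -1.78, against 0.0413 over all genes tested. MCM10 had a log2 change of -2.45, CDC6, which helps load the replicative helicase, of -2.37, and RRM2, which helps supply deoxynucleotides, of -2.34. All 14 mitotic targets of MuvB with MYBL2 and FOXM1 were lower (median -2.15), among them MYBL2 (-2.37), CDC20 (-2.36) and AURKA (-2.27). Of 7 dimer partners and MuvB subunits, 5 were lower and 0 higher (median -0.96), led by LIN9 (-1.54), LIN54 (-1.50) and the E2F dimer partner TFDP1 (-1.08). Of 9 RB kinase genes, 5 were lower and 0 higher (median -0.89), with CCNE2 at -2.50, CCNA2 at -2.36 and CDK2 at -1.44.

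Of 5 genes of E2F turnover, 3 were lower (CKS1B -1.93, FBXO5 -1.84, CCNF -1.59) and 0 higher, with a median of -1.59. The 7 CDK inhibitors split. CDKN1A, the gene of p21, had 1340 and 3970 CPM in siFBL libraries A and B, against 126 and 132 CPM in siCTRL libraries A and B (log2 change 4.36, edgeR Benjamini-Hochberg adjusted p = 0.000118). Both siFBL libraries stood far above both siCTRL libraries, and library B was the higher of the pair, as it was for E2F4. CDKN2C (-2.27) and CDKN2D (-1.42) were among 3 inhibitors that were lower. At 12 h, 25 of 26 replication targets and 14 of 14 mitotic targets were lower. CCNE1, the cyclin that activates CDK2 at S-phase entry, was higher at 12 h with 7.20 and 8.36 CPM with siFBL, against 2.6 and 3.23 CPM with siCTRL (log2 change 1.42).

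**Figure D2:**
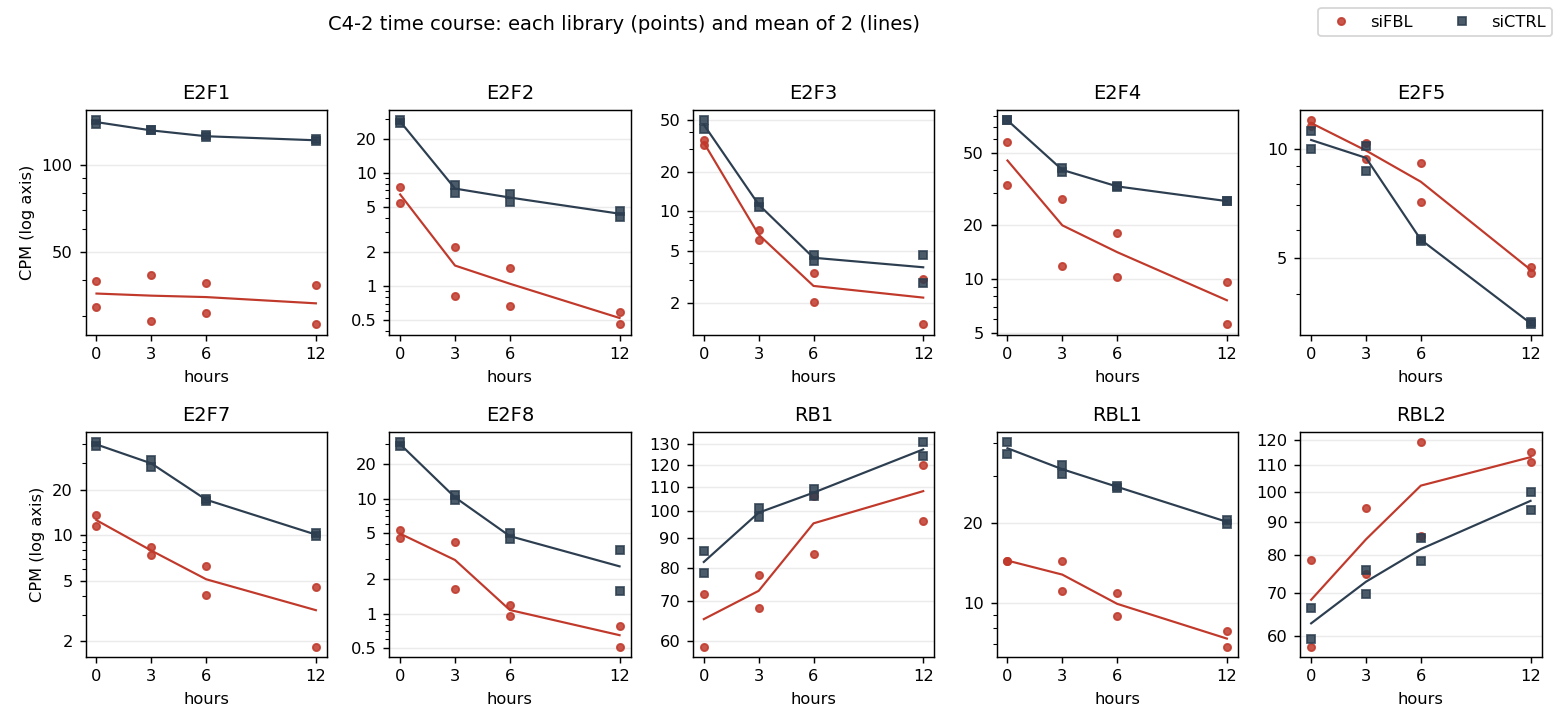
CPM of each member in C4-2 cells on a log axis against hour (0, 3, 6 and 12 h), siFBL and siCTRL in separate colours, 1 point per library and lines through group means. E2F1 and RBL1 run as lower, near-parallel lines after siFBL, and the E2F4 lines draw apart to a mean of 16.7% of the 0 h level at 12 h after siFBL, against 35.6% after siCTRL.

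Across the C4-2 time course the members fell to very different extents. CPM is a share of the RNA that remains, so a rising value means only that other RNAs fell faster. E2F3 had 3.02 and 1.37 CPM with siFBL at 12 h, against 4.65 and 2.83 CPM with siCTRL. It fell to a mean of 6.58% of its 0 h level at 12 h with siFBL and 8.17% with siCTRL. E2F2 fell to 8.13% with siFBL and 15.3% with siCTRL, and E2F8 to 13.1% with siFBL and 8.68% with siCTRL. E2F7 was at 25.5% with siFBL and 25.4% with siCTRL. E2F1 was still at 92.5% with siFBL and 86.5% with siCTRL, so that E2F1 and E2F3, both activators, lay far apart. RB1 had 120 and 96.3 CPM with siFBL at 12 h, against 131 and 124 CPM with siCTRL. It was at 166% with siFBL and 156% with siCTRL, and RBL2 at 165% and 154% in the same groups.

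The change from 0 to 6 h was tested in each siRNA group of C4-2 cells. With siFBL, where 24.4% of genes were called, E2F2 (log2 change -2.62), E2F3 (-3.63), E2F4 (-1.69), E2F7 (-1.30), E2F8 (-2.20) and RBL1 (-0.54) fell, and RB1 (0.54) and RBL2 (0.58) rose relative to other RNAs. With siCTRL, where 19.7% were called, E2F2 (-2.23), E2F3 (-3.37), E2F4 (-1.22), E2F5 (-0.92), E2F7 (-1.21) and E2F8 (-2.65) fell. E2F1 was not called in either group (log2 change -0.04 with siFBL and -0.16 with siCTRL). With the library number as a block within each siRNA, a setting chosen after seeing the data, E2F5 was also called with siFBL (-0.54, edgeR Benjamini-Hochberg adjusted p = 0.0323). With siCTRL that fit also called RB1 (0.40), RBL1 (-0.48) and RBL2 (0.38) (edgeR Benjamini-Hochberg adjusted p = 0.022, 0.021 and 0.0201). It called 32.8% of all genes with siFBL and 28% with siCTRL. Scaled to ribosomal protein mRNAs instead, the members shifted by a median of -0.81 with siFBL and -0.73 with siCTRL. RB1 then read -0.28 with siFBL and -0.33 with siCTRL.

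Whether siFBL altered these changes was tested directly. The change from 0 to 6 h differed between siFBL and siCTRL for 0.0% of genes (0 by edgeR with Benjamini-Hochberg adjustment, 775 at an unadjusted p under 0.05, 2 by DESeq2 of which 0 were members). The members' differences ran from -0.47 to 0.45 on the log2 scale, with 95% bounds from -1.44 to 1.52. That fit treats libraries of 1 number as unrelated across hours. With the number as a block within each siRNA, 7 genes (0.0299%) and 0 members were called by edgeR with Benjamini-Hochberg adjustment, 1 member was at an unadjusted p under 0.05, and the bounds ran from -1.11 to 1.27. The slope over all hours differed for 1 gene (0.00437%), which was no member; DESeq2 called 17 genes and 0 members. E2F4 was the member at an unadjusted p under 0.05 in the blocked fit. Within siFBL libraries A and B it changed from 0 to 6 h by -1.70 and -1.69 on the log2 scale, against -1.23 and -1.21 within siCTRL libraries A and B. From 0 to 12 h it changed by -2.58 in both siFBL libraries, against -1.49 and -1.50 in the siCTRL libraries. The siFBL libraries, which differed in level, thus changed nearly alike, and both fell further than the siCTRL libraries. The difference in change at 6 h was -0.48 (95% interval -0.871 to -0.0829, edgeR Benjamini-Hochberg adjusted p = 0.908) in the blocked fit. E2F4 also had the slope difference farthest from 0 (-0.0902 log2 per h, 95% interval -0.173 to -0.0069; with the block -0.0891, -0.148 to -0.0307, edgeR Benjamini-Hochberg adjusted p = 0.607). Missing the threshold at 2 libraries per group does not show that the rates were alike.

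In HEK293T cells at 0 h, no member was called after siFBL, where 1.74% of 14939 genes were called. By edgeR, 3 members were at an unadjusted p under 0.05, namely E2F2 (log2 change -0.52), E2F3 (0.51) and E2F7 (0.45), and DESeq2 called 0. At 0 h E2F1 had 61.9 and 70.2 CPM with siFBL, against 55.7 and 57.4 CPM with siCTRL. E2F8 had 20.9 and 21.4 CPM with siFBL, against 17.5 and 19.4 CPM with siCTRL. RBL1 had 36.2 and 35.1 CPM with siFBL, against 28.5 and 30.8 CPM with siCTRL. For all of E2F1, E2F8 and RBL1 the siFBL libraries lay above the siCTRL libraries, the other side from C4-2 cells, but none was called. E2F3, E2F4, E2F5, E2F7 and RB1 also had higher means with siFBL, and E2F2 and RBL2 had lower ones. The share of all genes whose libraries separate like this is not given here.

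At later hours in HEK293T cells, E2F2 was lower and E2F7 higher with siFBL than with siCTRL of the same hour. At 6, 12 and 24 h, 6.63%, 10.9% and 15.1% of genes were called. E2F2 had 12.4 and 10.3 CPM with siFBL at 6 h, against 26.6 and 20.6 CPM with siCTRL. At 24 h it had 12.8 and 9.73 CPM with siFBL, against 25.3 and 26.9 CPM with siCTRL. The groups did not overlap at either hour, and the log2 changes were -1.06, -1.14 and -1.21 at 6, 12 and 24 h (edgeR Benjamini-Hochberg adjusted p = 0.00667, 0.00292 and 0.00126). E2F7 had 39.9 and 28.7 CPM with siFBL at 6 h, against 19.7 and 18.1 CPM with siCTRL. At 24 h it had 36.7 and 25.8 CPM with siFBL, against 14.7 and 14.0 CPM with siCTRL. Its log2 changes were 0.86, 0.82 and 1.12 at 6, 12 and 24 h (edgeR Benjamini-Hochberg adjusted p = 0.0252, 0.0219 and 0.00302), also without overlap.

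E2F5 was called higher at 24 h, with 22.7 and 39.8 CPM with siFBL, against 11.1 and 9.29 CPM with siCTRL (log2 change 1.62, edgeR Benjamini-Hochberg adjusted p = 0.0256), and this call was lost under 4 of 11 alternatives, namely without siFBL replicate 2, without either siCTRL replicate of that hour, and with the libraries of that hour alone. None of the HEK293T member calls held with the libraries of that hour alone, where the adjusted p of E2F2 was 0.0921, 0.0806 and 0.0874 at 6, 12 and 24 h by edgeR. Libraries with the same number deviated together across hours (r 0.811 to 0.909 for siFBL and 0.653 to 0.878 for siNOP56). The hours are thus not independent repeats, though the fit over all hours treats their libraries as unrelated. The E2F7 calls at 6 and 12 h were lost when any 1 of the 4 libraries was left out. The E2F2 calls were lost without siCTRL replicate 1 or siFBL replicate 2 at 6 h, and without siFBL replicate 2 at 12 h. E2F4, not called, had 103 to 135 CPM over the hours in siFBL replicate 1, against 189 to 207 CPM in siFBL replicate 2, so 1 siFBL library stood apart from its pair at each hour.

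After siNOP56, 0.187% and 0.683% of genes were called at 0 and 6 h, and no member by edgeR with Benjamini-Hochberg adjustment. At an unadjusted p under 0.05 there were 0 members at 0 h and 1 at 6 h, and DESeq2 called 0 and 1. At 12 and 24 h, where 1.53% and 5.31% of genes were called, E2F2 was the member called. It had 14.2 and 12.4 CPM with siNOP56 at 12 h, against 26.7 and 24.8 CPM with siCTRL. At 24 h it had 14.8 and 12.3 CPM with siNOP56, against 25.3 and 26.9 CPM with siCTRL. The siNOP56 libraries lay below the siCTRL libraries at both hours (log2 changes -0.96 and -0.95, edgeR Benjamini-Hochberg adjusted p = 0.0255 and 0.0137). Both calls were lost without either siCTRL library or without siNOP56 replicate 2 of that hour.

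Among the pocket proteins of HEK293T cells, RBL1 was again the one with the greater shift after siFBL, though not called. At 24 h it had 12.6 and 14.9 CPM with siFBL, against 8.38 and 10.5 CPM with siCTRL (log2 change 0.54, edgeR Benjamini-Hochberg adjusted p = 0.064). RB1 had 137 and 107 CPM with siFBL at 24 h, against 88.9 and 95.3 CPM with siCTRL (log2 change 0.41). Both groups stood apart for these genes, while RBL2 had 75.2 and 74.2 CPM with siFBL, against 77.3 and 79.4 CPM with siCTRL (log2 change -0.07). After siNOP56 at 24 h, RBL1 had 10.7 and 13.7 CPM and RB1 98.3 and 109 CPM, each above the siCTRL libraries and not called (log2 changes 0.37 and 0.17). E2F1 had 90.3 and 88.5 CPM with siFBL at 24 h, 86.5 and 62.5 CPM with siNOP56 and 77 and 68.8 CPM with siCTRL; the siNOP56 libraries lay on either side of the siCTRL libraries.

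The siFBL and siNOP56 groups share their controls, so they were set against each other directly. At 0, 6, 12 and 24 h, 0.0201%, 0.0268%, 0.0736% and 0.107% of genes were called, and no member at any hour by edgeR with Benjamini-Hochberg adjustment; 1 member was at an unadjusted p under 0.05 at each hour, and DESeq2 called 0. That member was E2F7, with siFBL minus siNOP56 log2 differences of 0.48, 0.77, 0.72 and 0.70 (edgeR Benjamini-Hochberg adjusted p = 0.957, 0.293, 0.242 and 0.2). At 24 h E2F7 had 36.7 and 25.8 CPM with siFBL, against 20.4 and 18.0 CPM with siNOP56. Over the members the 95% bounds at 24 h ran from -0.66 to 1.44.

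**Figure D3:**
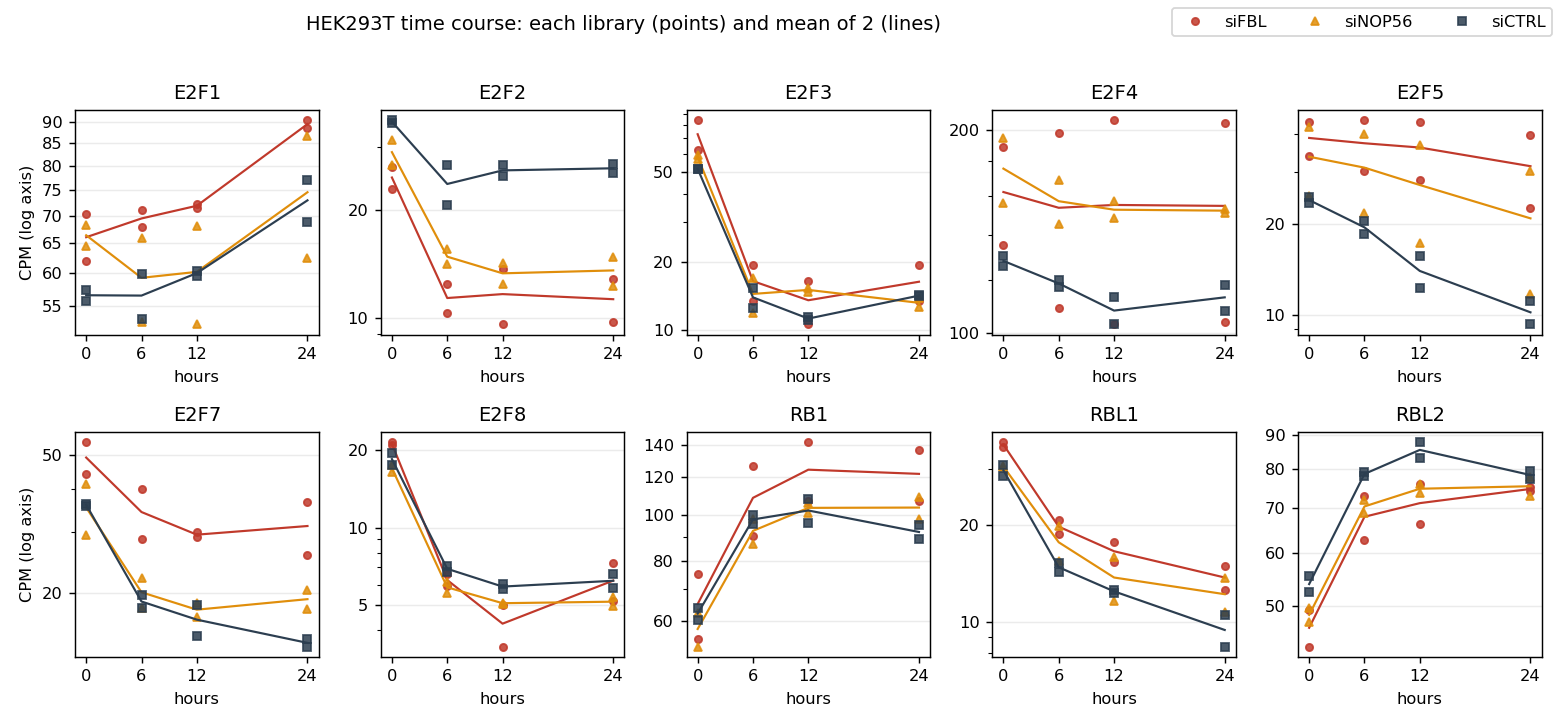
CPM of each member in HEK293T cells on a log axis against hour (0, 6, 12 and 24 h), with siFBL, siNOP56 and siCTRL in separate colours, 1 point per library and lines through group means. E2F2 lies lower and E2F7 higher after siFBL than after siCTRL from 6 h on, and the 2 siFBL libraries of E2F4 stay apart.

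Over the HEK293T time courses, E2F3 and E2F8 fell and the RB1 and RBL2 shares of the remaining RNA rose in each siRNA group. E2F3 had 13.5 and 19.4 CPM with siFBL at 6 h, 11.9 and 17 CPM with siNOP56 and 12.5 and 15.4 CPM with siCTRL, against 51.4 to 84.1 CPM over all libraries at 0 h. From 0 to 6 h, 42.9%, 41.9% and 44.1% of genes were called with siFBL, siNOP56 and siCTRL. E2F3 fell in all 3 groups (log2 change -2.15, -2.00 and -1.88, given for siFBL, siNOP56 and siCTRL in that order here and below). E2F8 fell too (-1.76, -1.54 and -1.42), as did E2F2 (-1.12, -0.97 and -0.58) and RBL1 (-0.84, -0.78 and -1). RB1 (0.74, 0.68 and 0.66) and RBL2 (0.55, 0.54 and 0.55) rose relative to other RNAs, but scaled to ribosomal protein mRNAs both read below 0 in each group. E2F7 fell with siNOP56 (-0.82) and siCTRL (-0.93) and was not called with siFBL (-0.52, edgeR Benjamini-Hochberg adjusted p = 0.05 after rounding). E2F1, E2F4 and E2F5 were not called. With the number as a block within each siRNA, E2F7 was called with siFBL (-0.53, edgeR Benjamini-Hochberg adjusted p = 0.000205) and E2F5 with siCTRL (-0.30, adjusted p = 0.0482). That fit called 66% of all genes with siFBL and 66.9% with siCTRL, so these added calls say nothing particular about the members.

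The change from 0 to 6 h differed from siCTRL for 0.0% of genes after siFBL and 0.0% after siNOP56 (edgeR with Benjamini-Hochberg adjustment; 293 and 163 genes at an unadjusted p under 0.05). Slopes over the hours likewise differed for 0.0% of genes after siFBL and 0.0% after siNOP56 (443 and 185 genes at an unadjusted p under 0.05; DESeq2 called 6 and 3 genes). No member was called in any of these tests. The members' differences of change ran from -0.54 to 0.40 after siFBL, with 95% bounds from -1.08 to 1.45. With the number as a block within each siRNA, 76 genes were called for the change after siFBL and 3 after siNOP56, again with 0 members, and the bounds after siFBL ran from -0.885 to 0.717.

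The pathway lists moved little in HEK293T cells at 0 h. After siFBL, 0 genes of each of the 6 lists were called by edgeR with Benjamini-Hochberg adjustment. Of the 26 replication targets, 4 were at an unadjusted p under 0.05 and 1 was called by DESeq2 (median log2 change -0.10, against 0.0428 over all genes), and of the 14 mitotic targets 3 and 1 (median 0.05). Of the 7 CDK inhibitors, 2 were at an unadjusted p under 0.05 and 1 was called by DESeq2 (median 0.44). At 24 h after siFBL, where 8.96% of all genes were called higher and 6.11% lower, 4 of 26 replication targets were higher and 2 lower (median 0.00), with the clamp loader subunit RFC3 at 0.68, the origin-binding ORC1 at -0.79 and GINS1 at -0.59. At that hour 3 of 14 mitotic targets were higher (CDC20 0.68, TOP2A 0.47 and FOXM1 0.39), as were LIN9 (0.94) and TFDP2 (0.51) among the dimer partners and MuvB subunits. After siNOP56 at 24 h, where 3.58% of all genes were called higher and 1.73% lower, 3 replication targets (CDC45 0.63, MCM5 0.51 and MCM2 0.49), CDC20 (0.64) and TFDP2 (0.56) were higher, and 0 of both target lists were lower. CCNE1 had 5.57 and 49.3 CPM in siFBL replicates 1 and 2 at 24 h, against 7.44 and 7.63 CPM with siCTRL, so that replicate 2, the library also high in E2F4, stood apart; it is named here after its values were seen.

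The siFBL effect at 0 h was then compared between the lines in 1 model. The difference, C4-2 minus HEK293T, was called for 7.36% of 20558 genes and for 4 members. E2F8 had a difference of -2.59 on the log2 scale (edgeR Benjamini-Hochberg adjusted p = 0.00141), E2F1 of -2.01 (adjusted p = 4.48e-06), E2F7 of -1.93 (adjusted p = 0.00155) and RBL1 of -1.48 (adjusted p = 0.000117). For each of these genes both siFBL libraries lay below the siCTRL libraries in C4-2 cells. In HEK293T cells both lay above them, and no change was called there. The share of all genes that separate in both lines like this is not given here. E2F2 had a difference of -1.44 that was not called (adjusted p = 0.0574), though 4 of 12 alternatives called it. FBL itself was reduced by a log2 difference of -2.03 more in C4-2 cells (adjusted p = 0.0693), and line, library depth and knockdown depth cannot be told apart in this comparison. All 26 replication targets and 13 of 14 mitotic targets were lower in the difference. CDKN1A had a difference of 3.27, with 122 and 127 CPM with siFBL in HEK293T cells, against 52.0 and 52.3 CPM with siCTRL.

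**Figure D4:**
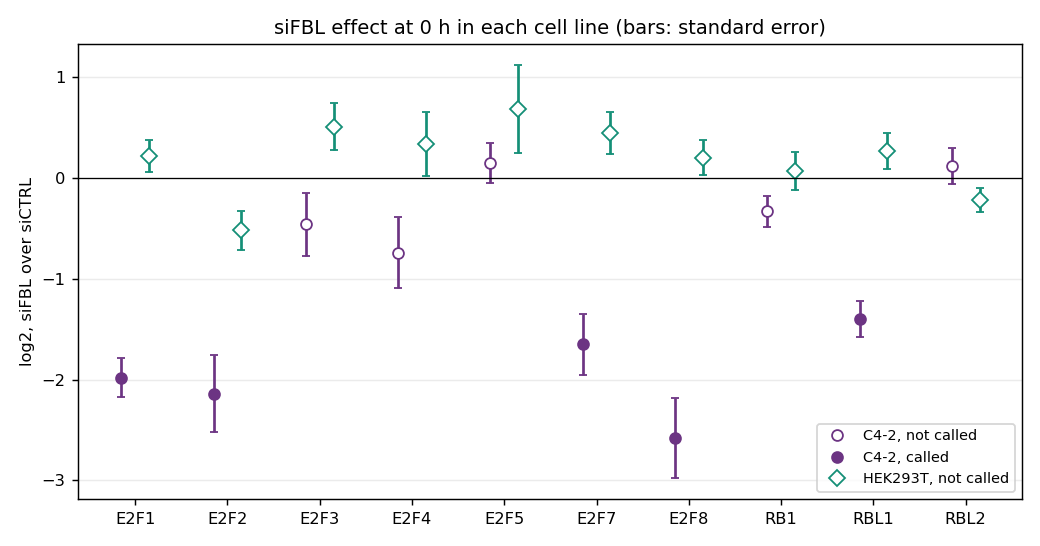
Log2 change after siFBL at 0 h for each member, C4-2 (circles) left of HEK293T (diamonds), with bars of 1 standard error and filled symbols for calls. E2F1, E2F2, E2F7, E2F8 and RBL1 lie below 0 in C4-2 cells, at -1.40 to -2.58, and 0 of the 10 were called in HEK293T cells.

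RIP libraries were compared with input to ask which RNAs came down with FBL. RBL2 was the most enriched member, with 371 and 355 CPM in RIP, against 137 CPM in both input libraries (log2 change 1.41, edgeR Benjamini-Hochberg adjusted p = 3.58e-19). RBL1 had 65.6 and 67.2 CPM in RIP, against 35.9 and 38.9 CPM in input (log2 change 0.83). RB1 went the other way from its relatives, with 81.7 and 75.4 CPM in RIP, against 104 and 92.9 CPM in input (log2 change -0.32). E2F1 had 72.5 and 72.1 CPM in RIP, against 116 and 112 CPM in input (log2 change -0.66). E2F7 (0.52), E2F3 (0.30) and E2F8 (0.26) were higher in RIP with TMM scaling, and E2F4 (-0.53), E2F5 (-0.34) and E2F2 (-0.19) were lower. These directions are relative to the other RNAs and rest on the scaling. By library totals alone, a setting chosen after seeing the data, the members shifted by a median of -0.94, E2F7 (-0.42), E2F3 (-0.64) and E2F8 (-0.68) were lower in RIP, RBL1 (-0.11) was not called (edgeR Benjamini-Hochberg adjusted p = 0.122), and RBL2 was still higher (0.47). All 10 members were called with TMM scaling, but so were 82.9% of 14967 genes (39.9% higher and 43.0% lower), so the count says nothing particular about them. The E2F2 call was lost under 5 of 10 alternatives, that of E2F5 under 2, and those of E2F8 and RBL1 under 1 each.

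Enrichment moved with RNA length. Over 13993 RNAs with a length (93.5% of those tested), the median log2 change was -0.91, -0.37, 0.12 and 0.76 in 4 classes of equal size running short to long. RBL2 (4906 nt of exon) lay 1.29 above the median of its length class, at its 87.2nd percentile. The other 9 members lay between -0.44 (RB1) and 0.57 (E2F5) of theirs. The part that length has in these values was not tested. Neither a control antibody nor a pull-down from siFBL cells is among the libraries.

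**Figure D5:**
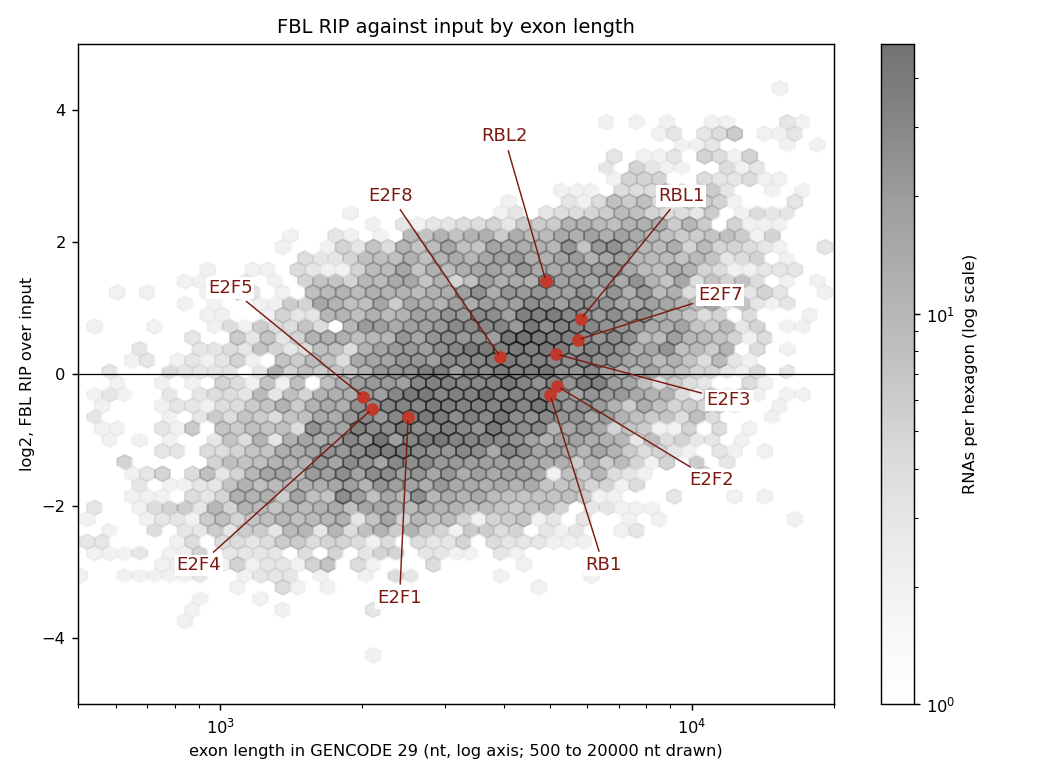
Log2 RIP over input against exon length in nt (log axis) for RNAs from 500 to 20000 nt, as grey hexagons shaded by the number of RNAs, with the members as red points; RNAs beyond 5 log2 units either way are not drawn. RBL2 sits at 1.41, well above the median of 0.12 in its class, and the other members lie nearer the medians of theirs.

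SLAM-seq labelled RNA with 4-thiouridine, which reads as T>C changes, in C4-2 cells after siFBL or siCTRL. Since header and labelled hours differ, siFBL and siCTRL were compared over all hours, with the labelled hour only as a covariate, and no decay rate is given. E2F1 had 10.2 to 23.3 CPM (median 13.1) over 8 siFBL libraries, against 14.2 to 26.7 CPM (median 19.3) over 8 siCTRL libraries. These ranges overlapped, and the log2 change of -0.42 was not called (edgeR Benjamini-Hochberg adjusted p = 0.195). With the header hour as covariate in its place, E2F1 was called (adjusted p = 0.0325 by edgeR), as were 11.6% of the 14207 genes tested. E2F4 had 16.1 to 34.8 CPM (median 22.1) with siFBL, against 13.5 to 40.4 CPM (median 26.1) with siCTRL. RB1 had 7.13 to 20.9 CPM (median 12.1) with siFBL, against 6.22 to 17.9 CPM (median 11.2) with siCTRL. The groups overlapped for both genes. RBL1 had 0.616 to 4.84 CPM (median 3.29) with siFBL, against 1.67 to 4.03 CPM (median 2.74) with siCTRL, and RBL2 11.9 to 21.8 CPM (median 14.6) with siFBL, against 12.9 to 20.4 CPM (median 15.3) with siCTRL.

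Over total SLAM-seq reads, 0.929% of 14207 genes and 0 of the 8 members tested were called (1 member at an unadjusted p under 0.05, 0 by DESeq2). In the 3′ UTR interval with the most reads, which stands for each gene here, E2F2 had 0 reads in all 16 libraries and E2F8 had 68 reads over all libraries, so neither was tested. For the share of T>C reads with the labelled hour as covariate, 0.0% of 11682 genes were called (edgeR with Benjamini-Hochberg adjustment; 2 genes at an unadjusted p under 0.05; median log2 change -0.512), and 0 of 7 members tested. That fit took as noise the spread of libraries within a labelled hour, such as 58.4% and 10.0% at 0 h with siCTRL. The labelled hour did not order the libraries by their T>C share: the share over all reads was lower at labelled 24 h than at 0 h in 2 of 4 series of libraries. By header hour, it was 54.5% and 54.3% (0 h), 29.7% and 29.5% (6 h), 18.4% and 18.0% (12 h) and 5.01% and 5.17% (24 h) with siFBL, against 58.4% and 58.3%, 34.1% and 33.6%, 21.6% and 21.3%, and 10.0% and 10.1% with siCTRL. The libraries of 1 header hour lay close together and fell in order, and those of siFBL were lower at each header hour. With the header hour as covariate, 3761 genes (32.2%) were called, 3758 of them lower with siFBL (median log2 change -0.564 over all genes), and of the 7 members E2F4 was called (-1.27, edgeR Benjamini-Hochberg adjusted p = 0.00137).

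E2F4 had T>C shares of 75.2% and 76.2% with siFBL at header hour 0, against 84.1% and 84.5% with siCTRL. At header hour 6 they were 9.20% and 9.46% with siFBL, against 16.4% and 19.0% with siCTRL, and at header hour 12 they were 3.59% and 2.73% with siFBL, against 8.66% and 8.25% with siCTRL. At header hour 24 they were 1.75% and 0.646% with siFBL, from 8 and 4 T>C reads, against 3.05% and 6.43% with siCTRL, from 4 and 25. The siFBL libraries lay below the siCTRL libraries at each header hour. E2F1 had 10.8% and 27.0% with siFBL at header hour 6, against 23.1% and 40.7% with siCTRL, and 7.33% and 22.5% with siFBL at header hour 12, against 25.4% and 14.9% with siCTRL. Its groups overlapped at both, and it was not called with the header hour as covariate (log2 change -0.64, edgeR Benjamini-Hochberg adjusted p = 0.173). By their T>C shares the libraries followed the header hour and not the labelled hour, and no further record of the hours was at hand.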

How the data were processed

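Gene counts for C4-2, HEK293T and RIP libraries were used as the authors deposited them; TopHat2 2.1.1, HOMER and Trim Galore are named in the submitters' processing notes without a role, and no source used here gives the strand setting or the build behind each table. SLAM-seq counts of reads and of reads with T>C changes per 3′ UTR interval came from slamdunk 0.4.3, per the file headers, after 24 h in 100 µM 4-thiouridine and a uridine chase; per gene, the interval with the most reads was kept, and the share test needed 10 T>C reads. The deposited score of those files, reads scaled by mapped depth, served only to recover that depth. The 4 nanopore libraries were not analysed here.

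Counts were tested with edgeR 4.0.16 (R 4.3.3; filterByExpr, TMM, quasi-likelihood test, Benjamini-Hochberg adjusted p under 0.05), with 1 model per cell line over all siRNA groups and hours, and the scripts were tested on simulated data. The tests across lines, RIP and SLAM-seq had models of their own, with the labelled hour as a covariate in SLAM-seq. Alternatives were DESeq2 1.42.0, other scalings, no filter, each library left out, the replicate number as a block and the libraries of 1 hour alone; the 6 h against 0 h comparisons, siFBL against siNOP56, the block in C4-2, the block within each siRNA and RIP scaled by library totals alone were added after seeing the data. Same-numbered siFBL and siCTRL libraries correlated at -0.136 to 0.0469 in HEK293T (siNOP56 and siCTRL -0.1 to 0.222; RIP and input 0.142), so numbers were not taken to pair samples across siRNAs. Across hours within an siRNA they correlated at 0.65 to 0.803 (C4-2 siFBL), 0.811 to 0.909 (HEK293T siFBL) and 0.653 to 0.878 (siNOP56), but -0.136 to 0.24 with siCTRL in C4-2 and -0.0261 to 0.19 in HEK293T. The members and gene lists were chosen with earlier results of these data known. Named genes are the 10 members, FBL and NOP56, and of each list in each comparison up to 3 called ones at a mean CPM of 5 or more, by size of log2 change; CCNE1 and CDKN1A fall under that rule in C4-2 cells. Exon lengths and overlaps came from GENCODE 29. Intervals are the estimate plus or minus 1.96 SE (95% under a normal distribution). With few libraries they are narrower than the quasi-likelihood tests imply, so an interval can exclude 0 at an unadjusted p over 0.05. The genes nearest to E2F1 in C4-2 cells are not reported here.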

Additional observations from a re-analysis of the deposited data

Results flagged for a closer look

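In all, 4 members met the test for a siFBL effect at 0 h that differs between the cell lines, by edgeR with Benjamini-Hochberg adjustment over all genes in 1 model of both lines. Of all 20558 genes tested, 7.36% did. The difference of log2 changes, C4-2 minus HEK293T, was -2.01 for E2F1, -1.93 for E2F7, -2.59 for E2F8 and -1.48 for RBL1. Both siFBL libraries of these 4 genes lay below both siCTRL libraries in C4-2 cells and above them in HEK293T cells, where none was called at 0 h. How many of all genes separate in this way is not given here. The lines differ in depth and in how far FBL itself was reduced, and their part in these differences was not tested.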

How the results depend on the processing

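Of 31 counts of called members, 386 of 409 recomputed values stayed within 1.5 times the reported count. Many of the reported counts were 0, and a 0 that stayed 0 is included, so the total says little about the calls. For siFBL at 6 h in HEK293T cells, 6 of 11 recomputed values stayed within that range. The 5 C4-2 calls at 0 h and the 4 calls of the line difference held under all alternatives tried. Scaled to ribosomal protein mRNAs, the members' 6 h against 0 h changes shifted by medians of -0.78, -0.77 and -0.88 with siFBL, siNOP56 and siCTRL in HEK293T cells. Some then turned direction, to -0.28 (RB1) and -0.24 (RBL2) with siFBL and -0.33 (RB1) with siCTRL in C4-2 cells. In HEK293T cells they turned to -0.70 (E2F1), -0.05 (RB1) and -0.23 (RBL2) with siFBL, -0.10 (RB1) and -0.24 (RBL2) with siNOP56, and -0.22 (RB1) and -0.34 (RBL2) with siCTRL; the cause was not tested.

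With the libraries of 1 hour alone, 0 members were called in HEK293T at 6, 12 and 24 h after siFBL and at 12 and 24 h after siNOP56. That fit has fewer samples, while the fit over all hours treats same-numbered knockdown libraries as unrelated although they deviated together across hours. Leaving out 1 library gave 0 to 1 called members at 6 h, 0 to 2 at 12 h and 2 to 3 at 24 h after siFBL, and 0 to 1 at 12 and 24 h after siNOP56. By library totals alone, RIP against input read -0.64 (E2F3), -0.42 (E2F7), -0.68 (E2F8) and -0.11 (RBL1). The replicate block within each siRNA, used for changes over the hours, moved no count of members by over 1.5 times. It called 9853, 9772 and 9994 genes in place of 6413, 6253 and 6589 for 6 h against 0 h with siFBL, siNOP56 and siCTRL in HEK293T cells, and 3 genes in place of 1 for the C4-2 slope and 2 in place of 0 for the HEK293T siFBL slope. In C4-2 cells leaving out 1 library gave 5 to 7 in place of 8 for siFBL at 6 h against 0 h. Across siRNAs the numbers do not pair the samples; the replicate block common to all siRNAs called 1 member after siNOP56 at 6 h, as did DESeq2 (1), in place of 0, and changed no other count of members by over 1.5 times. It called 861 genes in place of 260 for siFBL at 0 h in HEK293T cells and 140 in place of 28 for siNOP56. DESeq2 called 3824 genes in place of 1988 for siFBL at 0 h in C4-2 cells and 748 in place of 260 in HEK293T cells. The hour in the SLAM-seq headers as covariate called 1 member over total reads (1655 genes in place of 132), namely E2F1, and 1 for the share of T>C reads (3761 genes in place of 0), namely E2F4. E2F2, with 0 reads, and E2F8 could not be tested in SLAM-seq (the cause was not tested), and 2 libraries per group limit every comparison.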

Other observations

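The genes whose course over the libraries was nearest that of 3 members were found by the root mean square difference of centred log2 CPM, among genes averaging 5 CPM or more. In C4-2 cells (10026 genes, 16 libraries) these were KIF18A (0.378), CDCA2 (0.459) and ERCC6L (0.473) for E2F8 and RAP1GDS1 (0.0549), YME1L1 (0.0553) and MAP2K1 (0.0631) for RB1. In HEK293T cells (10358 genes, 24 libraries) they were ANAPC13 (0.126), PRR14 (0.141) and LRCH4 (0.142) for E2F1, RPP14 (0.191), PNRC2 (0.194) and ZXDB (0.206) for E2F8, and WDR11 (0.115), CCNG1 (0.12) and SLC25A13 (0.129) for RB1.

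Of the lists around the family, RB kinases had 7 of 8 tested genes higher in FBL RIP than in input and 1 lower, with CCNA2 at a log2 change of 1.61. The 14 mitotic targets had 10 higher and 3 lower (median 1.19), led by CENPF at 4.72, and the 26 replication targets had 15 higher and 8 lower (median 0.64). PCNA at -2.29 and CKS1B at -2.54 lay at the other end. Over all genes tested, 39.9% were higher and 43.0% lower, with a median of -0.106. By library totals alone the counts were 4 higher and 2 lower for RB kinases, 8 and 4 for mitotic targets (median 0.24) and 9 and 14 for replication targets (median -0.30, so the direction of that list turned), against a median of -1.05 over all genes, and the part of RNA length in them was not tested.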
